A study of Mus musculus with 2 samples.

Results

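The unfolded protein response and the integrated stress response were followed here through 38 genes, chosen by symbol: the stress sensors and the kinases that phosphorylate eIF2α, the ATF4 arm, the chaperones of the endoplasmic reticulum (ER), and genes of ER-associated degradation (ERAD). All 38 symbols were found among the 55401 gene rows of the deposited table. Ddit3 had 2 rows, of which the second (ENSMUSG00000116429) held 1 count in each library, so the 38 genes had 39 rows. Of these, 37 had a mean of 1 FPKM (fragments scaled to gene length and library size) or more over both libraries and entered the counts and medians below. The rows left out were Trib3 and the second Ddit3 row.

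RNA was measured by poly(A)-selected sequencing in MDSCs (myeloid-derived suppressor cells), which are immature relatives of neutrophils and monocytes and restrain T cells in tumours. The cells were taken with magnetic beads from 8-week-old C57BL/6 mice that bore MC38 tumours (a colon adenocarcinoma line of the mouse) and were kept for 24 h in co-culture with MC38 cells. One library came from LysM-cre, Mettl3fl/fl mice and 1 from Mettl3fl/fl mice without Cre. Both genotypes thus carried the floxed alleles of Mettl3, the catalytic subunit of the enzyme that writes N6-methyladenosine on messenger RNA. LysM-cre is expressed from the lysozyme 2 locus and is active in myeloid cells in general, not in MDSCs alone. For the LysM-cre sample, MC39 is written in 1 label field where MC38 stands elsewhere. The sources used here do not say whether a library pooled several animals.

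The libraries held 59393864 counts (LysM-cre) and 59506878 counts (floxed control). Mettl3 had 3.92 FPKM in the library labelled LysM-cre and 4.16 FPKM in the floxed control, a ratio of CPM (counts scaled to the library total) of 0.945 with an exact 95% interval of 0.876 to 1.02, so the whole-gene value did not differ beyond counting error and directions are given for the library labelled LysM-cre. With 1 library per genotype nothing could be tested and no p-value is given. Intervals of CPM ratios are exact (Clopper-Pearson) and cover counting error only, since reads copied by PCR are not independent molecules and the spread between animals was not measured. A gene is called higher or lower here when its CPM ratio was at least 1.2-fold or 1.5-fold, and each such count is read against the share of all 12526 rows past the same fold.

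When unfolded proteins build up in the ER lumen, the sensors IRE1α (Ern1), PERK (Eif2ak3) and ATF6 are released from the chaperone BiP (Hspa5). ATF6 is cut to an active factor and IRE1α splices the Xbp1 messenger, and both factors are known for raising genes of protein folding, glycosylation and ERAD. PERK, with GCN2 (Eif2ak4), HRI (Eif2ak1) and PKR, phosphorylates eIF2α, which lowers general translation and favours translation of ATF4, a factor for genes of amino acid supply and redox defence. In myeloid cells of tumours these pathways have been linked to survival and to suppressive function. A gene-level table shows neither Xbp1 splicing, nor cleavage of ATF6, nor eIF2α phosphorylation.

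The chaperones were the role group with the highest ratios. Of 15 genes for ER chaperones and folding enzymes, 8 were at least 1.2-fold higher with LysM-cre and none was 1.2-fold lower, with a median log2 CPM ratio of 0.27. The sensors had a median of −0.10, the ATF4 arm of 0.00 and the ERAD genes of 0.02, against 0.00 over all 12526 rows. Among all 37 rows kept, 8 were 1.2-fold higher, all of them chaperones, where 14.2% of all rows and 11.0% of protein-coding rows were. Only Sel1l, a gene of ERAD, was 1.2-fold lower, where 13.1% of all rows and 9.34% of protein-coding rows were. No member reached 1.5-fold in either direction, a size that 5.21% of all rows reached upward and 4.91% downward. The counting interval lay above 1 for 17 members and below 1 for 10, where it lay above 1 for 30.1% and below 1 for 29.7% of all rows. The ratio itself exceeded 1 for 22 of 37 members and for 50.2% of all rows. In bulk RNA, fewer cells of a type and less RNA per cell cannot be told apart, and this holds for each ratio below.

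**Figure D1:**
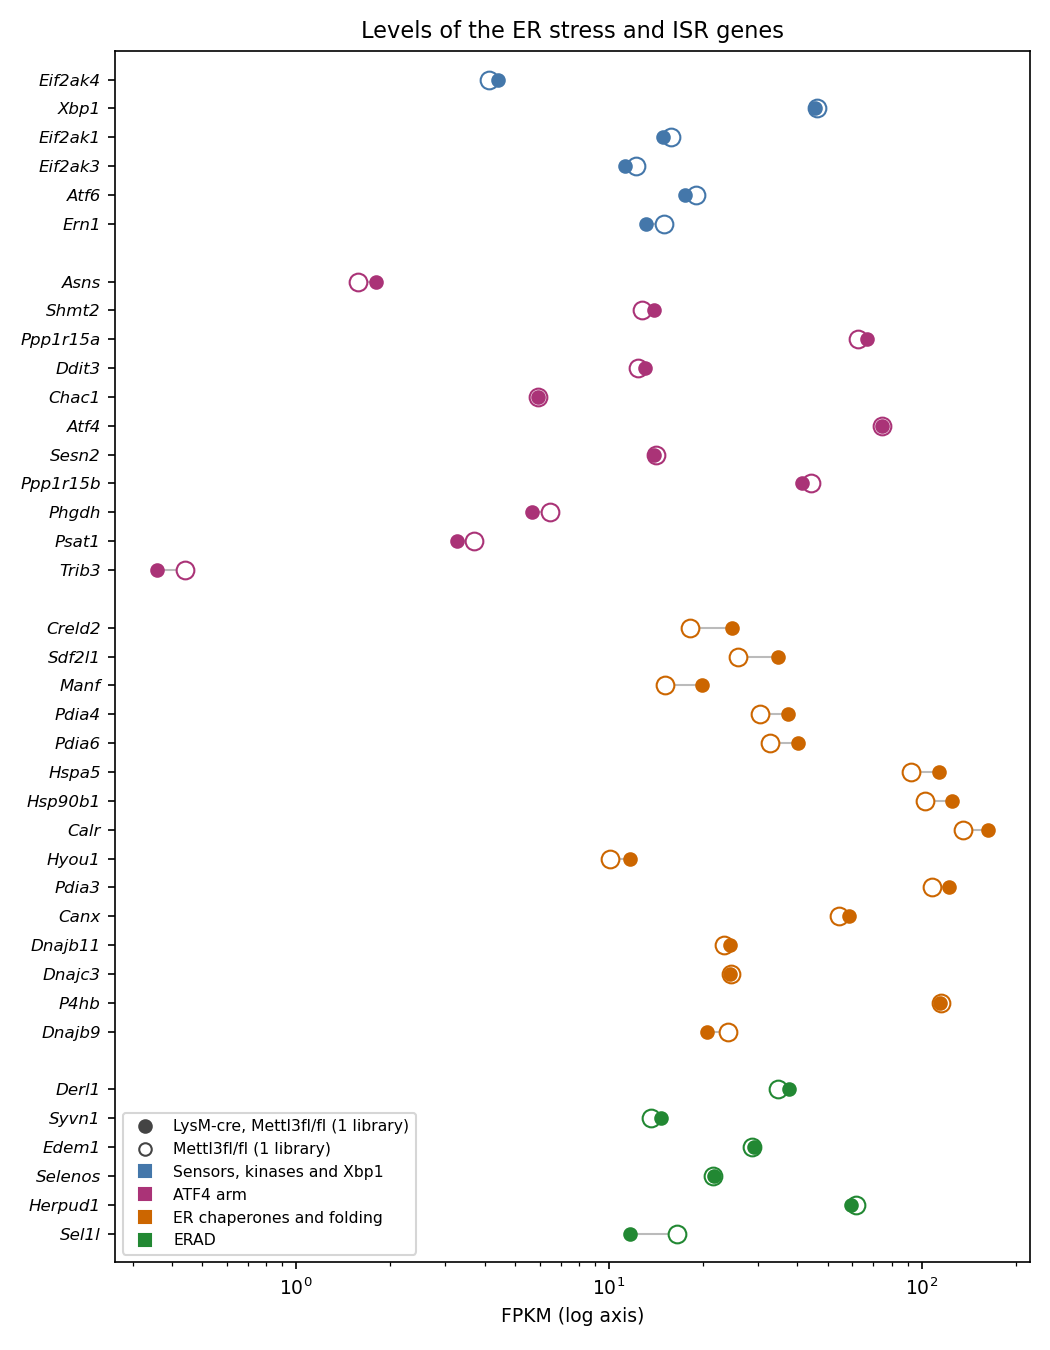
FPKM (log axis) of the 38 genes, grouped by role, with filled points for the library labelled LysM-cre and open points for the floxed control (1 library each, no error bars). The 5 genes with the highest levels are chaperones, led by Calr at 163 FPKM with LysM-cre and 135 FPKM in the control, while others of the group, such as Hyou1 and Manf, lie below Atf4, Ppp1r15a, Herpud1 and Xbp1.

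The sensors were expressed at moderate levels and lay slightly lower in the library labelled LysM-cre, none by 1.2-fold. Ern1 (chromosome 11, 106394650 to 106487852 on the minus strand, mm10), the IRE1α kinase and nuclease, had 13.1 FPKM in the library labelled LysM-cre and 14.9 FPKM in the control, on 7165 counts with LysM-cre and 8165 in the control (CPM ratio 0.879, 95% interval 0.852 to 0.908). Atf6 had 17.4 FPKM in the library labelled LysM-cre and 18.9 in the control (0.921, 0.897 to 0.946). Eif2ak3, the PERK kinase, had 11.2 FPKM in the library labelled LysM-cre and 12.2 FPKM in the control, a ratio like that of Atf6 (0.922, 0.885 to 0.960). Each of these intervals lay below 1, but about 18.4% of all rows lay below the ratio of Ern1 and 26.9% below that of Atf6, so these ratios are common in this pair of libraries.

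Xbp1, the substrate of IRE1α, had 45.5 FPKM in the library labelled LysM-cre and 46.4 in the control, and its interval covered 1 (0.981, 0.954 to 1.01). It was the most highly expressed gene of this group. The other eIF2α kinases of the list went different ways. Eif2ak1, the haem-regulated kinase, had 14.9 FPKM in the library labelled LysM-cre and 15.8 FPKM in the control (0.943, 0.909 to 0.978). Eif2ak4, which senses uncharged tRNA, was the exception above 1, with 4.41 FPKM in the library labelled LysM-cre and 4.14 FPKM in the control (1.07, 1.00 to 1.13).

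The ATF4 arm differed little between the libraries. Of 10 rows kept, 5 had a ratio above 1 and 5 below, none past 1.2-fold, and the summed counts had a CPM ratio of 0.994 (0.982 to 1.01). Atf4 itself, the factor at the centre of the integrated stress response, had 74.4 FPKM in the library labelled LysM-cre and 74.8 FPKM in the control, on 11695 counts with LysM-cre and 11789 in the control (0.994, 0.969 to 1.02). Ddit3, which encodes the pro-apoptotic factor CHOP, had 13.05 FPKM in the library labelled LysM-cre and 12.4 in the control (1.05, 0.978 to 1.13). It overlaps Mars1 on the opposite strand, which held 2809 counts in the library labelled LysM-cre and 2798 in the control. Whether the counting used strand is not stated in the sources at hand. Chac1, a glutathione-degrading enzyme that ATF4 and CHOP induce, held 649 counts in each library (5.95 FPKM with LysM-cre and 5.93 FPKM in the control). Trib3, a pseudokinase and another ATF4 and CHOP target, was near the limit of detection with 52 counts in the library labelled LysM-cre and 63 in the control (0.827, 0.562 to 1.21). Sesn2, a stress-induced inhibitor of mTORC1, had 13.9 FPKM in the library labelled LysM-cre and 14.1 FPKM in the control (0.989, 0.942 to 1.04).

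The regulatory subunits that direct phosphatase 1 to eIF2α lay on either side of a ratio of 1, neither past 1.2-fold. Ppp1r15a, the stress-inducible subunit GADD34, had 66.8 FPKM in the library labelled LysM-cre and 62.6 in the control (1.07, 1.04 to 1.09). Ppp1r15b, the constitutive subunit, had 41.3 FPKM in the library labelled LysM-cre and 44.2 FPKM in the control (0.934, 0.914 to 0.955). Of all rows, 68.0% lay below the ratio of Ppp1r15a and 30.0% below that of Ppp1r15b, so both ratios are common in this pair of libraries.

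The amino acid enzymes of the arm also lay on both sides of 1, none past 1.2-fold. Psat1 and Phgdh, enzymes of serine synthesis, had 3.26 and 5.68 FPKM in the library labelled LysM-cre, against 3.72 and 6.47 FPKM in the control, with ratios of 0.875 (0.801 to 0.957) and 0.879 (0.805 to 0.960). A pseudogene row of Phgdh held 12 counts in the library labelled LysM-cre and 1 in the control. Shmt2, the mitochondrial enzyme that turns serine into glycine, had 13.9 FPKM in the library labelled LysM-cre and 12.7 FPKM in the control (1.09, 1.04 to 1.15). Asns, asparagine synthetase, was the least abundant gene of the arm that was kept, with 1.81 FPKM in the library labelled LysM-cre and 1.58 in the control, and its interval covered 1 (1.14, 0.974 to 1.34).

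Of the 4 role groups, the chaperones took the largest part of the counts. Together the 15 genes held 0.355% of all counts in the library labelled LysM-cre (exact 95% interval 0.353 to 0.356%) and 0.309% in the control (0.308 to 0.311%), a CPM ratio of 1.15. The ratios within the group ran between 0.859 and 1.36, and 12 of 15 lay above 1.

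Genes for the small ER proteins Creld2, Sdf2l1 and Manf had the highest ratios of all members. Creld2 (ENSMUSG00000023272, chromosome 15, 88819646 to 88826683 on the plus strand, mm10), an ER protein with disulfide isomerase activity, had 24.7 FPKM in the library labelled LysM-cre and 18.2 in the control, on 2249 counts with LysM-cre and 1660 in the control (CPM ratio 1.36, 95% interval 1.27 to 1.45). Sdf2l1 (ENSMUSG00000022769, chromosome 16, 17130138 to 17132383 on the minus strand), a luminal partner of BiP co-chaperones, had 34.8 FPKM in the library labelled LysM-cre and 25.8 FPKM in the control, on 2569 counts with LysM-cre and 1910 in the control (1.35, 1.27 to 1.43). Manf (ENSMUSG00000032575, chromosome 9, 106838312 to 106891915 on the minus strand), a BiP-binding factor that stressed cells secrete, had 19.8 FPKM in the library labelled LysM-cre and 15.1 FPKM in the control (1.31, 1.25 to 1.36). Between 90.7% and 92.4% of all rows had ratios below those of Manf, Sdf2l1 and Creld2. The Manf row overlaps Rbm15b on the same strand, which held 3452 counts in the library labelled LysM-cre and 3181 in the control. With same-strand rows summed the log2 ratio of Manf was 0.27 in place of 0.38, just past 1.2-fold. It also overlaps Dcaf1 on the opposite strand, which held 1533 counts in the library labelled LysM-cre and 1361 in the control.

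BiP and the abundant luminal chaperones lay close together at about 1.2-fold. Hspa5 (ENSMUSG00000026864, chromosome 2, 34771970 to 34777547 on the plus strand), which encodes BiP, had 114 FPKM in the library labelled LysM-cre and 92.5 in the control, on 32078 counts with LysM-cre and 26125 in the control (1.23, 1.21 to 1.25). Hsp90b1, the ER member of the HSP90 family, had 124 FPKM in the library labelled LysM-cre and 103 in the control (1.21, 1.19 to 1.23). Calr, the lectin chaperone calreticulin, had 163 FPKM in the library labelled LysM-cre and 135 in the control (1.203, 1.18 to 1.22). It was the most highly expressed of the 38 genes and the nearest to the 1.2-fold line from above. The nearest from below was Hyou1, whose product exchanges nucleotides on BiP, and which had 11.7 FPKM in the library labelled LysM-cre and 10.1 FPKM in the control (1.16, 1.12 to 1.21). On the TPM scale, in which each library sums to the same total per length, both Hsp90b1 and Calr lay within 1.2-fold, with log2 ratios of 0.26 and 0.25. Calr also lay within it (log2 ratio 0.26) with immunoglobulin and haemoglobin genes left out of the library totals and with 5 FPKM added to both values.

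The protein disulfide isomerases differed among themselves. Pdia6 had 40.3 FPKM in the library labelled LysM-cre and 32.7 in the control (1.23, 1.195 to 1.27), and Pdia4 had 37.5 FPKM with LysM-cre and 30.3 FPKM in the control (1.24, 1.19 to 1.28). Pdia3, the isomerase that works with the lectin chaperones, had 122 FPKM in the library labelled LysM-cre and 108 in the control (1.13, 1.11 to 1.15). P4hb, the founding isomerase and a subunit of prolyl hydroxylase, had a ratio near 1, with 114 FPKM in the library labelled LysM-cre and 115 in the control (0.989, 0.970 to 1.01). Canx, calnexin, the membrane-bound relative of calreticulin, had 58.7 FPKM in the library labelled LysM-cre and 54.1 FPKM in the control (1.08, 1.06 to 1.11).

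The J-domain co-chaperones of BiP, which stimulate its ATPase, did not share the ratio of BiP. Dnajb11 had 24.4 FPKM in the library labelled LysM-cre and 23.3 in the control (1.05, 1.01 to 1.09), and Dnajc3, also known as an inhibitor of eIF2α kinases, had 24.4 FPKM with LysM-cre and 24.5 FPKM in the control (0.996, 0.966 to 1.03). Dnajb9, a known XBP1 target that hands misfolded proteins to ERAD, had the lowest ratio of the group with 20.5 FPKM in the library labelled LysM-cre and 23.9 FPKM in the control (0.859, 0.821 to 0.899). The interval of BiP overlapped none of those of the 3 co-chaperones. These intervals cover counting error only, by which 30.1% of all rows lay above 1 and 29.7% below, and the difference was not tested.

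**Figure D2:**
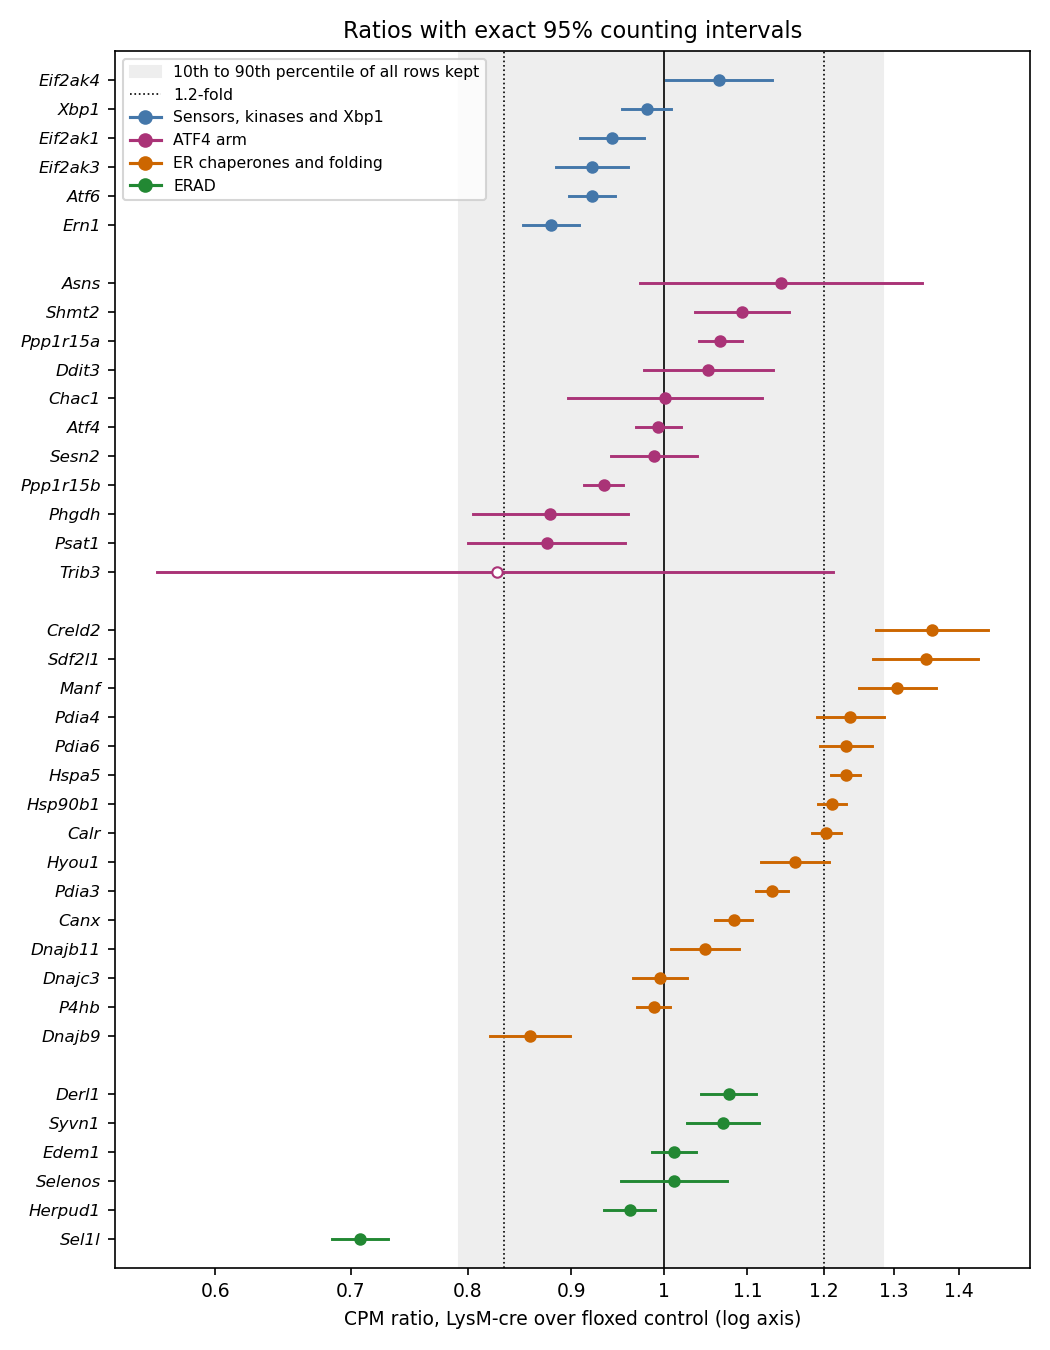
CPM ratio of the library labelled LysM-cre over the floxed control (log axis) for the 38 genes, with exact 95% intervals that cover counting error only; dotted lines mark 1.2-fold, grey the 10th to 90th percentile of all 12526 rows (0.792 to 1.28), and the open point Trib3, below the expression minimum. The chaperones extend to 1.36, the other groups lie around 1, and Sel1l stands alone at 0.708.

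Promoter sequence was available for 33 of the 38 genes as windows of 250 bases before to 50 after the transcription start (RefSeq, GRCm38.p6). The missing ones were Atf6, Ppp1r15b, Manf, Hyou1 and Derl1. The windows were searched on both strands for the ER stress response element ERSE (CCAAT, any 9 bases, CCACG), which ATF6 and XBP1 are known to bind together with NF-Y, for ERSE-II (ATTGG, any 1 base, CCACG), for the XBP1-type element UPRE (TGACGTGG) and for the ATF4-type element CARE (TGATGNAA). An ERSE stood in the windows of 7 of 13 chaperone genes and of 1 of 5 ERAD genes, in none of 5 sensors and in none of 10 ATF4 arm genes. Of all 32851 windows in the table, 39 (0.119%) held one. The members were chosen by role, and ATF6 and XBP1 are known for raising folding genes. This gap thus describes the choice of genes and not these libraries. The matches are shown because 5 of the 8 chaperones past 1.2-fold hold them, while Manf, also among the 8, had no window to search. They are ordered by the CPM ratio of their gene and read 5′ to 3′ on the strand that carries CCAAT first, with the letters fixed by the motif in capitals:
Creld2: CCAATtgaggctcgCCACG
Pdia6: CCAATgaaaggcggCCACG
Hspa5: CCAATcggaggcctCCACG
Hsp90b1 distal match: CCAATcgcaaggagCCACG
Hsp90b1 proximal match: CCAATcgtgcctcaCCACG
Calr: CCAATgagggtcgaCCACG
Canx: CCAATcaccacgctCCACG
Syvn1: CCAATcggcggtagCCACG
Dnajc3: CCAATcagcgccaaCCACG

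The spacer letters differ between genes while the fixed ends are the same by construction of the search. The matches nearest to and farthest from the start ended 26 bases (Syvn1) and 194 bases (the distal one of Hsp90b1) upstream of it. Among chaperones with a window, 5 of the 7 with an ERSE and 2 of the 6 without one (Sdf2l1 and Pdia4) were 1.2-fold higher, with median log2 ratios of 0.28 and 0.12. Of the 5 with an ERSE, Calr and Hsp90b1 lay within 1.2-fold on the TPM scale, while Sdf2l1 and Pdia4 stayed past it, so this contrast depends on the scale. Over all roles, 5 of the 8 genes with an ERSE were 1.2-fold higher, against 2 of the 24 genes with a window and no ERSE that were kept. Of all rows 14.2% were, and of protein-coding rows 11.0%. Of these 8 genes 7 were chaperones, and every gene past the fold here was a chaperone, so the ERSE and the role cannot be told apart. The genes with an ERSE that lay within 1.2-fold were Canx (1.08), Syvn1 (1.07) and Dnajc3 (0.996). These counts describe few genes and were not tested. ERSE-II was found in Herpud1 and Dnajb11 (0.0365% of all windows), CARE in Asns, Chac1, Trib3 and Herpud1 (3.97% of all windows) and UPRE in no member (0.676% of all windows), and none of the matches overlapped another. A match is a description of letters in a window and not a site of binding.

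The 250 bases before the start are given for Creld2, Pdia6 and Hspa5, the members with the largest ratios among those that hold a match, so that the place of the ERSE can be seen. The strand of the gene is shown, with the ERSE in capitals. In Creld2 it lies in reverse, and in Hspa5 the deposited gene row begins upstream of the RefSeq start, within the stretch shown and before the match:
Creld2, chr15:88819396-88819645 (+ strand): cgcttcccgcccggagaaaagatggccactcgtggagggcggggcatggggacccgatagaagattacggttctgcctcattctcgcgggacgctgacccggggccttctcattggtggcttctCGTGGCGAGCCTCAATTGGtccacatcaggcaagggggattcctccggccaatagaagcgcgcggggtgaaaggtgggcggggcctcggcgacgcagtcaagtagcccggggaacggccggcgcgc
Pdia6, chr12:17266339-17266588 (+ strand): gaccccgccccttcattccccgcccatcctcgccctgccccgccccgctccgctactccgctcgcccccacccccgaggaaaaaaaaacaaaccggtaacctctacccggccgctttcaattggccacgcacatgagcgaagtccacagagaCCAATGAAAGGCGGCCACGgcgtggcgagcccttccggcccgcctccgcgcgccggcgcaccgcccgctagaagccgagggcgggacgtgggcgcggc
Hspa5, chr2:34771840-34772089 (+ strand): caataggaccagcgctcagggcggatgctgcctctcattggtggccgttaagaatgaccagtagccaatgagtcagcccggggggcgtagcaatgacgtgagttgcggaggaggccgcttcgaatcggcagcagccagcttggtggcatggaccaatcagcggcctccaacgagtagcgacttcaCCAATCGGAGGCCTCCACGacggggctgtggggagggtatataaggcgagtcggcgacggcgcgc

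The ERAD genes lay near level except for Sel1l, and over the 6 genes the median log2 ratio was 0.02 and the mean −0.053. Sel1l (ENSMUSG00000020964, chromosome 12, 91806043 to 91849157 on the minus strand), the adaptor that holds substrates at the HRD1 ubiquitin ligase, had 11.7 FPKM in the library labelled LysM-cre and 16.5 in the control, on 6681 counts with LysM-cre and 9459 in the control (0.708, 0.686 to 0.730). It was the lowest ratio of the 38 genes, and 6.16% of all rows lay below it. No other row overlapped it and no pseudogene row was found for it. Syvn1, which encodes HRD1 itself, went the other way with 14.6 FPKM in the library labelled LysM-cre and 13.6 in the control (1.07, 1.03 to 1.12). The intervals of Sel1l and its partner Syvn1 did not overlap, but they cover counting error only. By that error 30.1% of all rows lay above 1 and 29.7% below, and the difference was not tested.

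Derl1, a membrane protein of the channel through which substrates leave the ER, had 37.5 FPKM in the library labelled LysM-cre and 34.8 in the control (1.08, 1.04 to 1.11). Herpud1, a scaffold of the ligase complex, had 59.4 FPKM in the library labelled LysM-cre and 61.7 FPKM in the control (0.962, 0.935 to 0.990). Edem1, a lectin that selects glycoproteins for degradation and a known XBP1 target, had 29.0 FPKM in the library labelled LysM-cre and 28.6 FPKM in the control (1.01, 0.987 to 1.04). Selenos, a selenoprotein that recruits the ATPase p97, had 21.7 FPKM with LysM-cre and 21.5 FPKM in the control (1.01, 0.952 to 1.07).

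Other genes of the same pathways were read from 7 lists that do not share a gene with the 38. In none of these lists did the share of genes past 1.2-fold exceed that of all rows, which was 14.2% upward and 13.1% downward. The shares of protein-coding rows were smaller, 11.0% upward and 9.34% downward. The eIF2 list exceeded them upward (13.3%), and the translocation list (12.9%) and the ATF4 target list (11.8%) exceeded them downward. Of 26 further ER folding genes, 23 were kept, with a median log2 ratio of 0.10. Here 17 (73.9%) had a ratio above 1, where 50.2% of all rows did, but only 2 (8.70%) were 1.2-fold higher, fewer than the 14.2% of all rows, and none was lower. These 2 were Sil1, another nucleotide exchange factor of BiP (6.66 FPKM in the library labelled LysM-cre and 5.16 in the control, ratio 1.29), and Prkcsh, a glucosidase subunit (17.4 FPKM with LysM-cre and 14.0 FPKM in the control, ratio 1.24). Most of the other folding genes thus also had ratios above 1, of a smaller size than among the chaperone members.

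Translocation and N-glycosylation genes were mixed. Of 31 genes kept, 18 had a ratio above 1, with a median log2 ratio of 0.03 and a mean of −0.06. Sec11a, a signal peptidase subunit, was 1.2-fold higher, with 7.57 FPKM in the library labelled LysM-cre and 5.36 in the control (1.41, 1.32 to 1.503). Lower by 1.2-fold were 4 genes (12.9%), close to the 13.1% of all rows and above the 9.34% of protein-coding rows. Of these, Ssr2 (0.811) and Srp72 (0.667), of the translocon and the signal recognition particle, did not reach 1.5-fold. Spcs2, another subunit of the signal peptidase, had 7.06 FPKM in the library labelled LysM-cre and 19.5 FPKM in the control (0.363, 0.344 to 0.382), and its pseudogene row held 19 counts with LysM-cre and 5 in the control. Srprb, the membrane anchor of the signal recognition particle receptor, had 3.996 FPKM in the library labelled LysM-cre and 7.48 FPKM in the control (0.533, 0.496 to 0.573).

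Of 28 further ERAD genes, 10 (35.7%) had a ratio above 1, where 50.2% of all rows did, with a median log2 ratio of −0.06 and a mean of 0.0075. Only 1 gene (3.57%) was 1.2-fold higher and 1 lower, below the 14.2% and 13.1% of all rows. The higher one was Ube2g2, a ubiquitin-conjugating enzyme that serves ERAD ligases, with 26.7 FPKM in the library labelled LysM-cre and 7.68 in the control (3.47, 3.26 to 3.70). The lower one was Ube2j1, the conjugating enzyme that works with HRD1 and Sel1l, with 22.9 FPKM in the library labelled LysM-cre and 28.6 FPKM in the control (0.8002, 0.772 to 0.829).

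The lists around eIF2 and ATF4 had medians near 0. Of 25 further ATF4 targets, 17 were kept (median log2 ratio −0.01), with 1 gene (5.88%) 1.2-fold higher and 2 (11.8%) lower. Of all rows 14.2% were higher and 13.1% lower, and of protein-coding rows 11.0% and 9.34%. Slc7a11, the cystine transporter, had 1.06 FPKM in the library labelled LysM-cre and 1.65 in the control (0.646, 0.596 to 0.7004), and Atf3, a stress-induced factor, had 61.7 FPKM with LysM-cre and 84.6 FPKM in the control (0.730, 0.710 to 0.750). The higher one was Cebpg, a dimer partner of ATF4, with 13.4 FPKM in the library labelled LysM-cre and 10.8 FPKM in the control (1.24, 1.19 to 1.297). The 18 cytosolic tRNA synthetases had a median of 0.01, with Yars 1.2-fold higher (1.22) and none lower. Of 15 genes for eIF2, its exchange factor eIF2B and regulators of its kinases (median 0.02), Eif2s3x and Eif2s2, subunits of eIF2, were 1.2-fold higher (1.24 and 1.21) and Gcn1, the activator of GCN2, was 1.2-fold lower (0.797). Of 18 other sensors and regulators, 15 were kept (median 0.00), with Creb3l1 1.2-fold higher (1.27) and Bcl2l11, which encodes the pro-apoptotic protein BIM, 1.5-fold lower (0.615, 0.587 to 0.644), with 5.38 FPKM in the library labelled LysM-cre and 8.75 FPKM in the control.

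**Figure D3:**
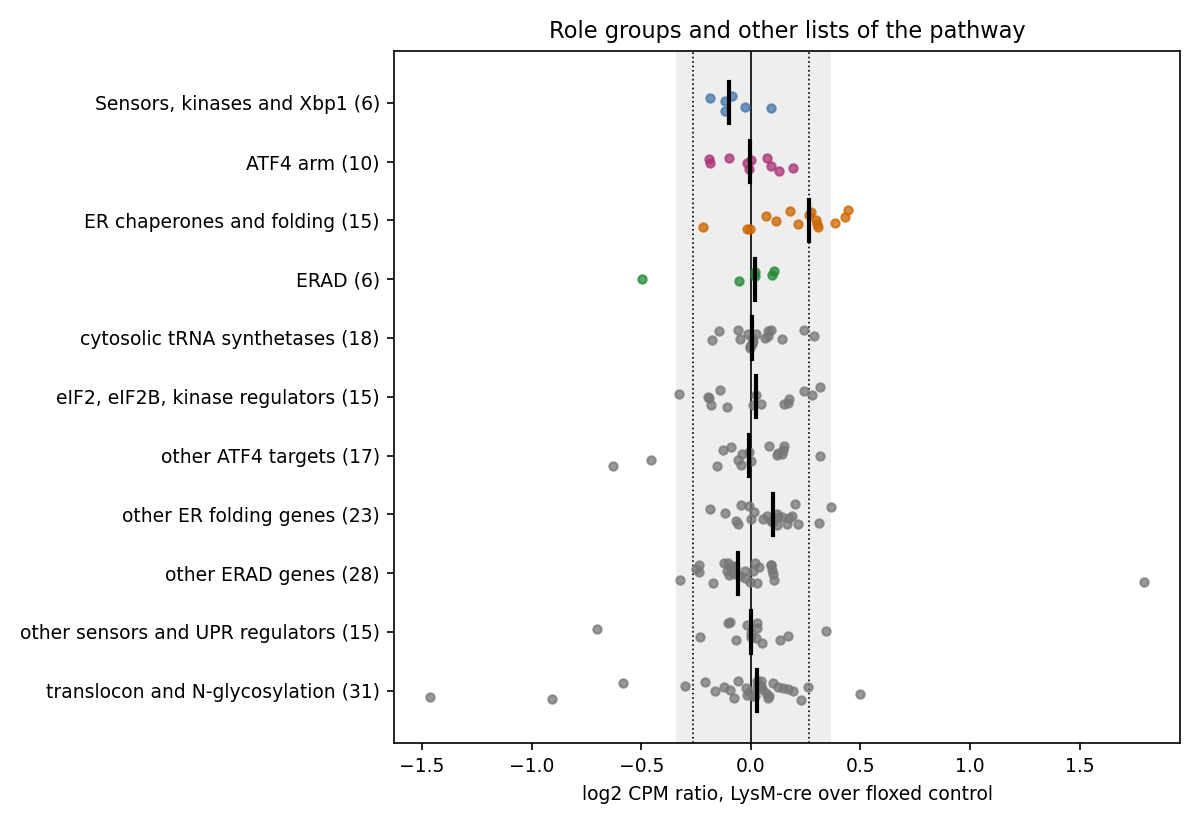
Log2 CPM ratio (library labelled LysM-cre over floxed control) of each gene kept, by role group of the members (coloured) and by list of other pathway genes (grey points), with the number of genes in parentheses; black bars are medians, dotted lines 1.2-fold and the grey band the 10th to 90th percentile of all rows. The chaperone median of 0.27 lies furthest from 0, and Ube2g2 and Spcs2 are the points furthest out.

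Both libraries held RNA of several cell types, and their markers differed as well. Neutrophil markers summed to 12789 CPM in the library labelled LysM-cre and 14806 CPM in the control, with 2 of 12 above a ratio of 1. Monocyte markers summed to 4952 CPM with LysM-cre and 4473 CPM in the control (4 of 7 above 1, with Cx3cr1 at a ratio of 9.99) and macrophage markers to 4909 CPM with LysM-cre and 4326 CPM in the control (9 of 10 above 1). Genes that define the labelled cell type were present, such as Ly6g (31.3 FPKM in the library labelled LysM-cre and 44.5 in the control) and Ly6c2 (122 FPKM with LysM-cre and 137 FPKM in the control), next to macrophage genes such as C1qa (655 FPKM with LysM-cre and 623 FPKM in the control).

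Secretory cells are rich in ER chaperones, so markers of plasma cells are given in full. The 10 plasma cell markers summed to 20822 CPM in the library labelled LysM-cre and 23730 CPM in the control, and 2 of 10 lay above a ratio of 1. These were Jchain, the joining chain of secreted immunoglobulins (2.18), and the transcription factor gene Irf4 (1.01). Ighm (0.477), the surface proteoglycan gene Sdc1 (0.708), Pou2af1 (0.855), Prdm1 (0.875), Tnfrsf17 (0.929), Igkc (0.944), Mzb1 (0.983) and Igha (0.987) lay below 1. The lower sum came from Ighm, which held 170979 counts with LysM-cre and 358894 in the control. This gap is wider than that of the 10 markers together, which held 1236670 counts with LysM-cre and 1412100 in the control. Jchain held 93047 counts with LysM-cre and 42817 in the control. The 8 B cell markers summed to 531 CPM in the library labelled LysM-cre and 583 CPM in the control, with none above 1.

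Higher sums beside those of the chaperones were found for eosinophil markers (1021 CPM in the library labelled LysM-cre and 756 in the control, 8 of 8 above 1) and for erythroid markers (1173 CPM with LysM-cre and 842 CPM in the control, 6 of 6 above 1). T and NK cell markers summed to 813 CPM with LysM-cre and 785 CPM in the control (4 of 8 kept above 1). Dendritic cell markers summed to 368 CPM with LysM-cre and 333 CPM in the control (2 of 5 kept above 1). This higher sum came from Itgax, with 16479 counts with LysM-cre and 14138 in the control. All dendritic cell markers together held 21864 counts with LysM-cre and 19840 in the control. Epithelial markers summed to 13.4 CPM with LysM-cre and 13.5 CPM in the control (1 of 2 kept above 1). Those kept were Krt18, with 138 counts with LysM-cre and 81 in the control (1.71), and Cdh1, with 528 counts with LysM-cre and 543 in the control (0.974). Krt19 and Krt20 had 0 counts in both libraries. The part of any of these cell types in the chaperone ratios was not tested.

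**Figure D4:**
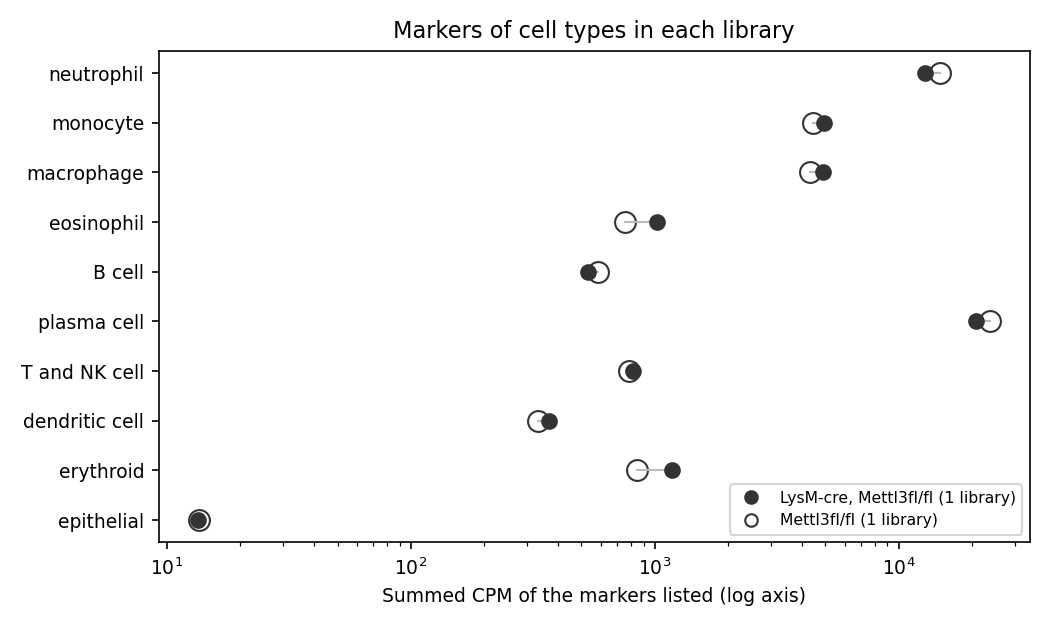
Summed CPM (log axis) of the listed markers of 10 cell types, with filled points for the library labelled LysM-cre and open points for the floxed control (1 library each, no error bars). Neutrophil, B cell and plasma cell sums are lower and macrophage, eosinophil and erythroid sums higher in the library labelled LysM-cre. The lower plasma cell sum comes from Ighm.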

How the data were processed

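The values come from a single series-wide table. Per the file headers it gives, for each library, counts and FPKM by gene row, as made by the authors. The deposited counts are whole numbers and not normalized. The FPKM values were deposited as scaled by the authors for length and depth, and 0.0001, which stands where the count is 0, was read as 0. Per the submitters' processing notes, the build was mm10 and the tools were edgeR, DESeq2, StringTie 1.3.4d, HISAT2 2.0.4 and cutadapt 1.9. The roles of these tools, and how strand and multi-mapping reads were handled, are not stated in the sources at hand, so rows that overlap or have near-identical copies are uncertain. The 8 columns of libraries without a label were not used.

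CPM is the count over the library total (59393864 in the library labelled LysM-cre and 59506878 in the floxed control), and ratios have exact Clopper-Pearson 95% intervals of counting error. The minimum for a row was a mean of 1 FPKM. Calls at 1.2-fold and 1.5-fold are a fixed rule of size. The table's gene symbols were used, with 2 listed genes matched by another symbol. All 38 genes are named; of each other pathway list, up to 3 genes past 1.5-fold and, chosen after their values were seen, those past 1.2-fold where few. The genes and lists were chosen with earlier results of these data known. Alternatives were other pseudocounts, TPM, TMM and median-ratio scaling (edgeR 4.0.16, R 4.3.3), totals without immunoglobulin and haemoglobin genes, summed overlapping rows, other minimums and the mean; leaving out Sel1l or the genes with an ERSE was added after seeing the data. The ratio and interval were tested on data simulated with counting error alone, which cannot show the effect of PCR copies or of the spread between animals. Promoter windows came from RefSeq on GRCm38.p6, the same build as mm10, and protein sequences were not used here. Computations ran in Python 3.11.15 with scipy 1.17.1, pandas 2.3.3, numpy 2.4.6 and, for the plots, matplotlib 3.10.9.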

Additional observations from a re-analysis of the deposited data

How the results depend on the processing

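No member past 1.2-fold reversed its direction under the alternatives of scale, scaling, rows and filter. The 8 members past 1.2-fold upward became 7 or 6 where Calr, or Calr and Hsp90b1, fell within the line, as given above. Both of these genes hold an ERSE. With no filter on low values 2 members in place of 1 lay 1.2-fold lower, the added one being Trib3 on 52 counts with LysM-cre and 63 in the control. As a mean in place of a median, the chaperone log2 ratio was 0.20 in place of 0.27, and that of the ERAD genes was −0.053 in place of 0.02, where Sel1l is 1 of 6 genes. Without the 7 chaperones that hold an ERSE, the median of the remaining 8 was 0.20. Among these are Manf and Hyou1, which had no promoter window. For the 6 with a window and no ERSE the median was 0.12. All other medians and counts of members moved by less than the median half-width of the counting intervals, or by 1.5 times or less, and the scalings left the median log2 ratio of all rows between −0.018 and 0.0024. Counting error is small for most members and large for Trib3 and Asns. No replicate could be left out, because each genotype had 1 library. For the same reason no paired analysis was possible.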

Other observations

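Outside the 38 genes, 25 other gene rows had an ERSE in a promoter window, and only 6 of these were kept at a mean of 1 FPKM or more. Their median log2 CPM ratio was −0.01. Derl3, an ERAD gene of secretory cells, had 2.53 FPKM in the library labelled LysM-cre and 2.86 FPKM in the control (CPM ratio 0.887), and Alg12, a mannosyltransferase of N-glycan assembly, had 7.00 FPKM with LysM-cre and 7.27 FPKM in the control (0.963). Xlr3b, of a multicopy X-linked family, was 1.2-fold higher (1.88) and Hnrnpa3, an RNA-binding protein gene, 1.2-fold lower (0.127), and both values are uncertain where reads are shared with related copies. These genes were looked at after their values were seen.

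Some pathway genes below the expression minimum differed in counts. Fgf21, a hormone gene that ATF4 induces in liver, held 0 counts in the library labelled LysM-cre and 16 in the control. Slc6a9, a glycine transporter gene, held 108 counts in the library labelled LysM-cre and 20 in the control (5.41, 3.34 to 9.21), and Casp12, an ER-associated caspase gene, 325 counts with LysM-cre and 179 in the control (1.82, 1.51 to 2.20). They too were picked after their values were seen.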
